A study of Canis lupus familiaris with 5 samples.

Results

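SLPI, SERPINB1 and SERPINA1, 3 genes that encode inhibitors of neutrophil serine proteases, were followed through the maturation of canine marrow cells. They are 3 of the 20257 features in the count tables, chosen by name (identifiers ENSCAFG00000028626, ENSCAFG00000009276 and ENSCAFG00000017646), with earlier results of these data known. Single-cell RNA sequencing had been done on bone marrow flushed from the femurs of 3 healthy dogs of genotype Wt, after lysis of red cells. Unsorted cells gave 3 libraries, whole marrows 1 to 3, 1 per dog. Viable CD34+ cells, which include stem and progenitor cells, were flow-sorted from the marrows of dogs 2 and 3 and gave 2 libraries, called sorted libraries 1 and 2. The labels give no ages, and no treatment separates the groups. Whole marrow went to sequencing only where flow cytometry had found a limited share of neutrophils, so the libraries are not a census of marrow neutrophils.

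Neutrophils mature in the marrow from MPO-expressing progenitors through promyelocytes, which fill primary granules with proteases such as neutrophil elastase (the product of ELANE), to myelocytes and metamyelocytes, which fill secondary and tertiary granules with proteins such as cathelicidin (CAMP) and lactoferrin (LTF), and to segmented cells. Elastase can damage the cell and its surroundings, and it is held in check by inhibitors. SLPI, the secretory leukocyte protease inhibitor, is a small secreted protein that blocks elastase and cathepsin G. SERPINB1 is a serpin that stays inside the cell and inhibits the same neutrophil proteases. SERPINA1, alpha-1-antitrypsin, is a secreted serpin, made mostly by the liver, and is the main elastase inhibitor of plasma.

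Counts are of UMIs, unique molecular identifiers that each mark 1 captured transcript. A barcode was kept when it held 200 genes or more and no more than 10% of its UMIs were mitochondrial. This left 7295, 4585 and 4343 whole-marrow cells (libraries 1 to 3) and 4720 and 3765 sorted ones (libraries 1 and 2), with totals of 44642408 to 61101458 UMIs. Sorted cells were deeper, with medians of 11622 and 14623 UMIs per cell against 2694, 3689 and 4344 in whole marrow, and had more mitochondrial UMIs (medians of 6.12% and 7.83% against 1.10% to 1.76%). Pairs of libraries shared 3 to 11 cell barcodes. Levels are counts per 1000000 UMIs (CPM) of the summed cells. Because each transcript is counted once at its 3' end, transcript length does not enter them. Whether different genes are captured and assigned equally well was not tested, so levels of different genes are set side by side only as a description.

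Cells were placed in 9 gates by their own raw UMIs, and a cell could pass several. The MPO gate took cells with MPO at 0.1% or more of UMIs and ELANE under 1%. The ELANE gate took cells with ELANE at 1% or more. The 2 CAMP gates took cells with CAMP at 1% or more, cycling (MKI67 and TOP2A together at 2 UMIs or more) or not cycling (0 UMIs). CXCL8 at 2 UMIs or more marked late neutrophils, VCAN at 2 or more monocytes, AHSP at 0.2% or more erythroid cells, VPREB1 at 5 or more early B cells and MS4A1 at 2 or more B cells. The gates drew on marker genes and not on the inhibitors, but this set of genes was picked for how it differs between such cells. Levels over the gates are therefore given as a description with no test. In whole marrow 575, 445 and 372 cells passed several gates, and 2543, 1345 and 1197 passed none.

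Each gate was checked against marker lists, and several held markers of other cells too. In the whole-marrow MPO gate CD34 stood at 66.8, 63.4 and 84.6 CPM, but CAMP, a gene of later cells, stood at 2473, 2927 and 9018 CPM. The VCAN gate also carried AHSP, from 2613 CPM in whole marrow 2 to 4097 CPM in whole marrow 1. CD79A, listed as an early B marker, was high in each whole-marrow gate, the lowest being 1622 CPM in non-cycling CAMP cells of whole marrow 2, and told no cell type apart here. The CXCL8 gate held late-neutrophil markers at a summed 4274 to 5095 CPM beside granule-rich neutrophil markers at 10355 to 16406 and erythroid markers at 1878 to 4855. The MS4A1 gate held B-cell markers at 364 to 614 CPM beside plasma-cell markers at 1608 to 3647 and erythroid markers at 78.3 to 3621. The part of these other cells or of free RNA in the levels below was not tested. The symbols PRTN3, CTSG, AZU1 and CD14 were not matched in the tables and these genes were not analysed here.

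Over all cells of each whole marrow SLPI was the most abundant of the 3 inhibitors, and it was concentrated in ELANE-gate cells. There it reached 143766, 97959 and 108125 CPM in whole marrows 1 to 3 (mean 116617 ± 24055, SD, n = 3), which is 14.4%, 9.80% and 10.8% of all UMIs of these cells. The MPO gate held 3657, 3081 and 7424 CPM. The cycling CAMP gate held 43514, 29204 and 37042 CPM. The non-cycling CAMP gate held 28828, 10727 and 12531 CPM, and the CXCL8 gate 7660, 6160 and 5808. In this order, from ELANE through cycling CAMP and non-cycling CAMP to CXCL8, no whole marrow's level overlapped that of the next gate. The CXCL8 and MPO gates overlapped. Lower down stood the VCAN gate (1264, 374 and 146 CPM), the AHSP gate (815, 260 and 615), the VPREB1 gate (284, 119 and 1356) and the MS4A1 gate (176, 122 and 254). The VCAN, AHSP and VPREB1 gates overlapped one another, and the MS4A1 gate lay at the low end of their range.

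**Figure D1:**
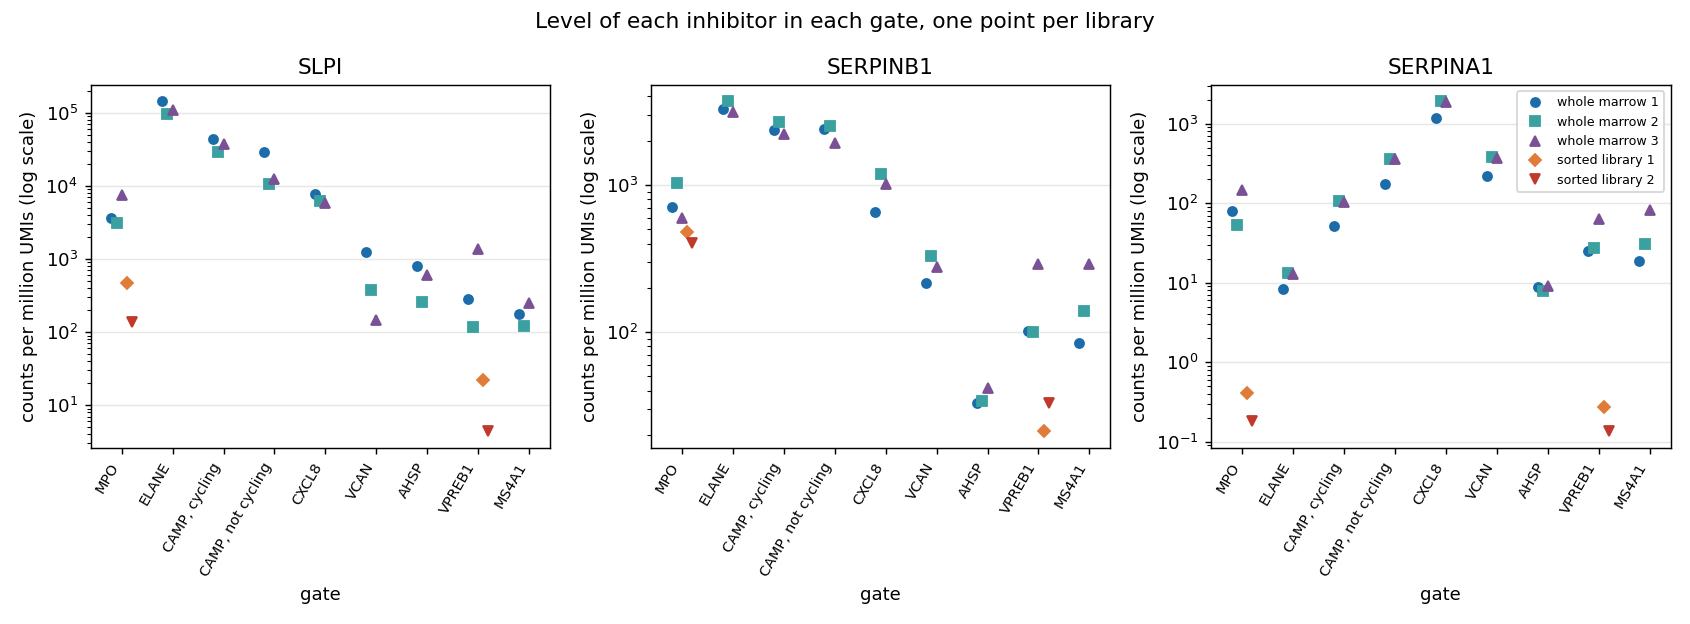
Levels of SLPI, SERPINB1 and SERPINA1 in CPM on a log axis, by gate, with 1 point per library that had at least 20 cells in the gate. SLPI and SERPINB1 are highest in the ELANE gate of each whole marrow, SERPINA1 in the CXCL8 gate, and the sorted libraries lie below the whole marrows in the MPO and VPREB1 gates.

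From the MPO to the ELANE gate SLPI was higher by 4.72 ± 0.75 on the log2 scale (CPM plus 1, SD, n = 3), at least 2-fold in each library. Of 5535 genes with enough signal for this step, 49 (0.885%) were at least 2-fold higher in all 3 libraries and 25.3% at least 2-fold lower. From the ELANE to the cycling CAMP gate SLPI stood at -1.67 ± 0.11 on that scale, where 5.36% of genes were lower by that rule. The next steps were uneven between dogs. From cycling to non-cycling CAMP cells the log2 ratio was -0.59, -1.44 and -1.56 in whole marrows 1 to 3, and from there to the CXCL8 gate it was -1.91, -0.80 and -1.11, so neither step passed 2-fold in all 3. By that rule 8.76% and 1.83% of genes were lower at these steps. Between the ELANE and CXCL8 gates SLPI was 18.8-fold, 15.9-fold and 18.6-fold lower, where 2.68% of genes were at least 2-fold lower in all 3. Leaving out cells that passed several gates moved this ratio from -4.15 to -7.75 ± 0.77.

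A small share of cells held nearly all SLPI. ELANE-gate cells were 7.07%, 6.09% and 5.34% of whole-marrow cells and held 14.5%, 9.11% and 11.2% of the UMIs of all genes. They held 93.3%, 93.8% and 92.2% of all SLPI UMIs. In the cycling CAMP gate 14.6%, 16.8% and 18.3% of cells also passed the ELANE gate, and these held 81.9%, 87.2% and 85.8% of the gate's SLPI. In the non-cycling CAMP gate 6.08%, 4.08% and 3.61% of cells did so and held 90.4%, 86.1% and 90.1%. In the CXCL8 gate the shares were 0.867%, 1.09% and 1.09% of cells with 93.2%, 94.3% and 81.9% of SLPI. Without those cells SLPI stood at 10337, 4966 and 7119 CPM in the cycling CAMP gate, at 3265, 1635 and 1360 in the non-cycling CAMP gate, and at 542, 374 and 1097 in the CXCL8 gate. The summed SLPI of the later gates was therefore mostly that of a few cells that also carried ELANE at 1% of UMIs or more. With called doublets removed the ELANE to CXCL8 log2 ratio was -4.04 ± 0.26. Whether the cells that passed the ELANE gate and a later gate were barcodes that mix cells was not tested.

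**Figure D2:**
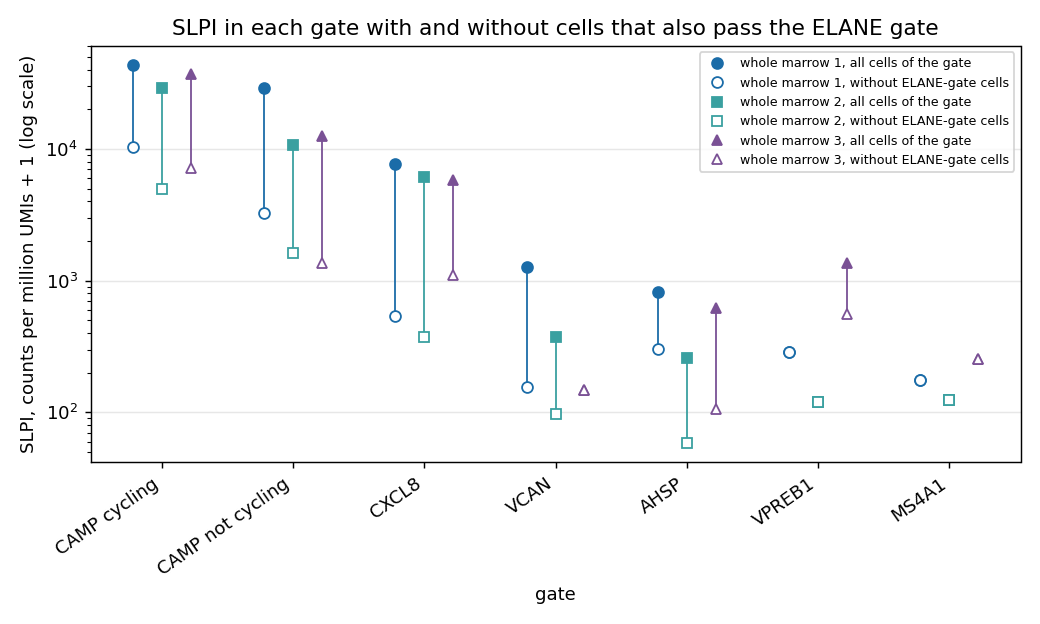
SLPI in CPM plus 1 on a log axis, by gate and whole marrow, for all cells of the gate (filled) and without the cells that also pass the ELANE gate (open). The CAMP and CXCL8 gates drop to between 374 and 10337 CPM, while the MS4A1 gate holds no such cell and both points coincide.

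Single cells showed the same division. The median ELANE-gate cell had 154279, 102153 and 122495 CPM of SLPI, and the highest cell of each library devoted 31.6%, 21.3% and 24.5% of its UMIs to this gene. SLPI took 10% or more of UMIs in 80.8%, 50.9% and 65.5% of ELANE-gate cells. In the non-cycling CAMP gate the median cell had 319, 0 and 215 CPM, and 9.57%, 6.12% and 4.85% of cells had SLPI at 1% or more. In the CXCL8 gate the median cell had 152, 0 and 362 CPM. The median MS4A1-gate cell had 204, 91.6 and 316 CPM, so the median late neutrophil lay near the level in B cells. Within whole marrow, cells with SLPI at 10% to 20% of UMIs had passed the ELANE gate in 97.5%, 100% and 100% of cases.

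SLPI was higher in cells with more ELANE, most clearly in the ELANE and cycling CAMP gates. The ratio of SLPI to ELANE UMIs was 3.13, 1.59 and 1.92 in the ELANE gates of whole marrows 1 to 3, 4.55, 2.28 and 2.67 in the cycling CAMP gates, and 3.30, 1.67 and 2.03 over all cells. Whole marrow 1 had the highest ratio in each of these. With cells binned by their ELANE share, mean SLPI was 409 ± 203 CPM (SD, n = 3) at 0 ELANE, 11034 ± 2906 at 0.1% to 0.2%, 51337 ± 18802 at 1% to 2% and 163395 ± 33874 at 8% or more. Across ELANE-gate cells Spearman's rho between the shares of SLPI and ELANE was 0.62, 0.68 and 0.69 (516, 279 and 232 cells of 1 library each), and across cycling CAMP cells it was 0.65, 0.67 and 0.70. It was weaker in later cells, at 0.38, 0.31 and 0.43 in the non-cycling CAMP gate and 0.12, 0.14 and 0.35 in the CXCL8 gate. These cells share a library and a denominator, and the values are descriptions. Against CAMP, whose protein belongs to later granules, SLPI was highest at middle shares: 607 ± 223 CPM at 0 CAMP, 95490 ± 21843 CPM at 0.5% to 1% CAMP, 17935 ± 7015 at 4% to 8% and 3397 ± 1160 at 8% or more.

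SERPINB1 was highest in the same gate as SLPI but differed less between stages. It stood at 3255, 3692 and 3106 CPM in the ELANE gate (mean 3351 ± 305), which is above the MPO gate with 712, 1037 and 601 CPM. The level in each whole marrow's ELANE gate was thus above that of any MPO gate. The cycling CAMP gate held 2358, 2656 and 2216 CPM and the non-cycling CAMP gate 2382, 2501 and 1920, and these gates overlapped. The CXCL8 gate held 659, 1187 and 1008 CPM. The VCAN gate held 216, 331 and 276 CPM, the VPREB1 gate 101, 101 and 291, the MS4A1 gate 84.6, 140 and 290, and the AHSP gate 33.1, 34.0 and 41.5. The ELANE gate overlapped no other, the CXCL8 and MPO gates overlapped, and the AHSP gate lay below all others.

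The log2 ratio of SERPINB1 was 2.13 ± 0.27 from the MPO to the ELANE gate, -0.48 ± 0.01 to the cycling CAMP gate, -0.09 ± 0.11 to the non-cycling CAMP gate and -1.29 ± 0.50 to the CXCL8 gate. The first of these passed 2-fold in all 3 libraries and the other three did not. Between the ELANE and CXCL8 gates SERPINB1 was 4.94-fold, 3.11-fold and 3.08-fold lower. Unlike SLPI, it remained at 2154 ± 313 CPM in non-cycling CAMP cells of a single gate. ELANE-gate cells held 44.1%, 36.1% and 37.0% of whole-marrow SERPINB1 UMIs, a smaller share than of SLPI in each library.

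SERPINA1 was near its lowest level in the ELANE gate, where SLPI was highest, and only the AHSP gate had a lower mean. It stood at 8.46, 13.2 and 12.8 CPM in the ELANE gate (64, 54 and 64 UMIs), 51.5, 108 and 103 CPM in the cycling CAMP gate, 176, 360 and 359 in the non-cycling CAMP gate and 1172, 1911 and 1869 in the CXCL8 gate. In each whole marrow the level was higher at every one of these gates than at the one before, with no overlap between neighbours. The CXCL8 gate was 139-fold, 145-fold and 146-fold above the ELANE gate. In this comparison 31.0% of 5591 genes were at least 2-fold higher in all 3 libraries. The steps were 2.77 ± 0.26, 1.76 ± 0.04 and 2.50 ± 0.19 on the log2 scale, where 8.11%, 8.56% and 26.6% of genes were higher by the same rule. Whole marrow 1 had the lowest level in each of these gates.

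Among other gates, the VCAN gate held SERPINA1 at 218, 378 and 370 CPM, a level that overlapped the non-cycling CAMP gate. Cells that passed the VCAN gate alone held 340, 514 and 518 CPM. The log2 ratio from the CXCL8 to the VCAN gate was -2.36 ± 0.05, at least 2-fold in each library, where 8.91% of genes were lower. From the ELANE to the VCAN gate the log2 ratio was 4.67 ± 0.12 for SERPINA1, -8.13 ± 1.35 for SLPI and -3.62 ± 0.25 for SERPINB1, where 42.9% of genes were at least 2-fold higher and 2.36% lower in all 3 libraries. The AHSP gate held 8.93, 7.94 and 9.20 CPM, the VPREB1 gate 24.8, 27.5 and 63.2, and the MS4A1 gate 19.0, 30.5 and 81.2. In MS4A1-gate cells of that gate alone SERPINA1 was 0, 22.6 and 5.88 CPM. Cells that passed the CXCL8 gate alone were 12.7%, 14.8% and 20.7% of whole-marrow cells and held 2.48%, 2.49% and 4.94% of the UMIs of all genes. They held 27.3%, 33.2% and 47.5% of SERPINA1 UMIs. Cells of no gate held 33.0%, 21.4% and 13.2% of SERPINA1 UMIs and 19.6%, 17.9% and 17.2% of the UMIs of all genes. Across cycling CAMP cells, rho between SERPINA1 and SLPI was -0.31, -0.48 and -0.53.

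With cells binned by ELANE share, SERPINA1 stood at 443 ± 150 CPM with 0 ELANE, 896 ± 251 at 0.1% to 0.2%, 31.7 ± 9.68 at 1% to 2% and 2.65 ± 2.84 at 8% or more. SERPINB1 in the same bins stood at 874 ± 51.0, 1656 ± 47.3, 2470 ± 659 and 3736 ± 282 CPM. Above 0 and under 0.05% ELANE both were lower than at 0 ELANE, with SERPINB1 at 369 ± 51.0 and SERPINA1 at 101 ± 48.4 CPM. The median cell of the bin at 0.1% to 0.2% had only 863, 912 and 2058 UMIs in whole marrows 1 to 3. Along this axis SLPI and SERPINB1 were thus highest in the bin where SERPINA1 was lowest.

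**Figure D3:**
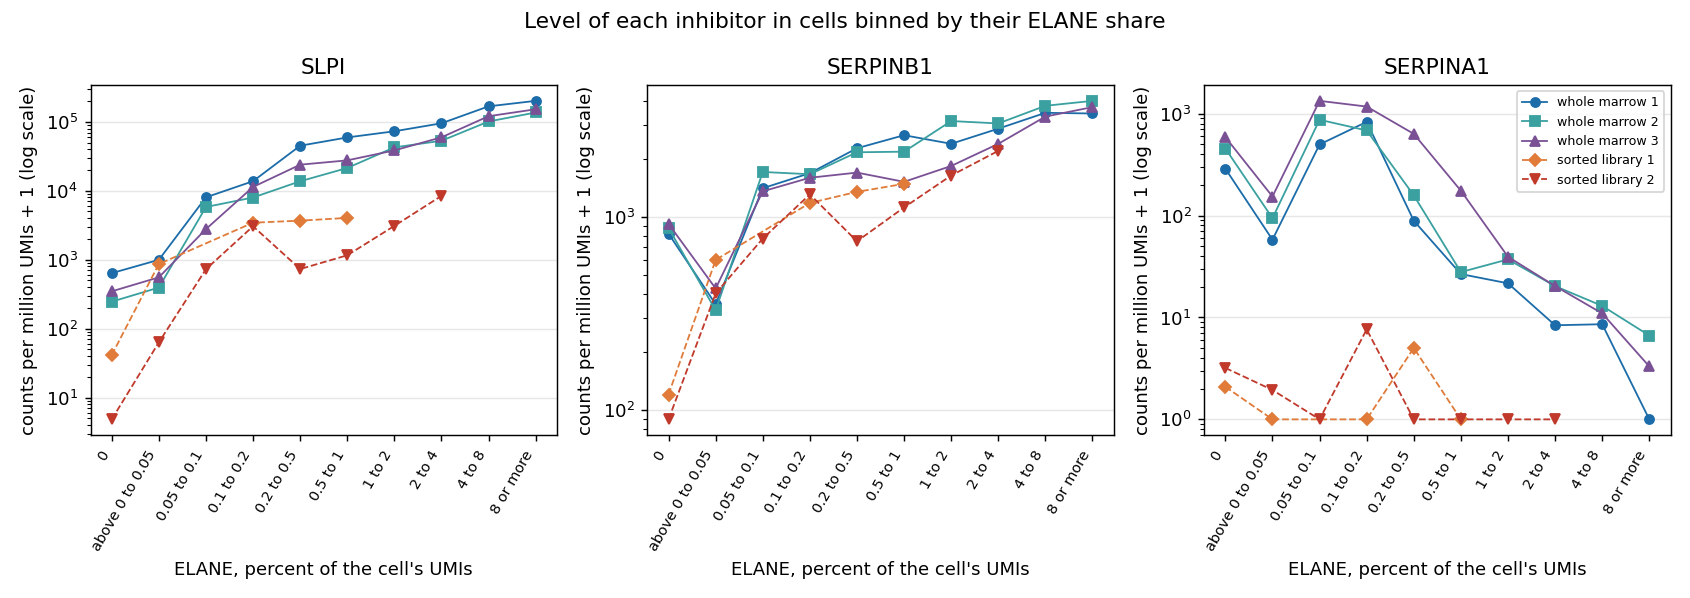
CPM plus 1 on a log axis for each inhibitor, in cells binned by the percent of their UMIs that come from ELANE, 1 line per library, for bins with at least 5 cells. In whole marrow SLPI and SERPINB1 are highest and SERPINA1 lowest in the top bins, and the sorted libraries lie below whole marrow for SLPI from 0.2% ELANE upward.

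The whole-marrow MPO gate held barcodes of unlike depth, and SERPINA1 differed between them. Cells with fewer than 5 MPO UMIs were 84, 24 and 23 of its 162, 93 and 47 cells, with medians of 702.5, 763 and 1624 UMIs. In them SERPINA1 stood at 2556, 3065 and 3362 CPM. In the 78, 69 and 24 cells with at least 5 MPO UMIs it stood at 14.1, 26.3 and 6.49 CPM, and CD34 at 68.2, 64.0 and 88.2 CPM. The log2 ratio of SERPINA1 from the MPO to the ELANE gate was -2.82 ± 0.78 with all cells and -0.25 ± 0.99 with at least 5 MPO UMIs, a limit chosen after seeing the data. SLPI, at 3638, 3075 and 7631 CPM in those deeper cells, and SERPINB1, at 710, 1040 and 563, were close to their values for the whole gate.

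Free RNA in the droplets, or barcodes that mix cells, can raise the share of cells with a UMI, and the part of either was not tested. SLPI was seen in 79.2%, 63.8% and 76.3% of MS4A1-gate cells (medians of 4114, 2913 and 4133 UMIs), a B-cell gate that should lack it, against 61.7%, 40.1% and 68.1% of non-cycling CAMP cells (medians of 3012.5, 3498 and 5268 UMIs). After every cell was thinned to 1000 UMIs, leaving out shallower cells, SLPI was seen in 99.6%, 98.5% and 99.1% of ELANE-gate cells, 61.4%, 53.4% and 56.9% of cycling CAMP cells, 35.5%, 20.1% and 28.2% of non-cycling CAMP cells and 35.4%, 14.9% and 34.0% of MS4A1-gate cells. Shares in the VCAN, AHSP and VPREB1 gates ran from 9.28% to 34.98%. These gates, and the non-cycling CAMP gate of whole marrows 1 and 3, were near or below the share in MS4A1-gate cells, which is read as background. The summed level of the non-cycling CAMP gate without ELANE-gate cells, given above, was higher than that of the MS4A1 gate in each library, so no order is read from these shares.

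For SERPINA1 the share in MS4A1-gate cells was below that for SLPI in each whole marrow, and for SERPINB1 in whole marrows 1 and 3. Thinned, SERPINB1 was seen in 93.8%, 97.1% and 92.6% of ELANE-gate cells and 88.6%, 91.6% and 81.7% of non-cycling CAMP cells. The CXCL8 gate had 49.3%, 56.0% and 57.5%, the VCAN gate 26.7%, 38.0% and 31.8% and the MS4A1 gate 10.4%, 14.9% and 26.8%. SERPINA1 was seen in 70.2%, 82.7% and 84.1% of thinned CXCL8-gate cells, 33.3%, 46.9% and 46.4% of VCAN-gate cells, 0.795%, 1.09% and 2.18% of ELANE-gate cells and 0%, 2.13% and 5.15% of MS4A1-gate cells. The CXCL8, VCAN and non-cycling CAMP gates were thus above the MS4A1-gate share of SERPINA1. The ELANE gate was under it in whole marrows 2 and 3, where the MS4A1 gate held 47 and 97 cells. In MS4A1-gate cells of that gate alone SERPINA1 was 22.6 and 5.88 CPM there, above and below the ELANE-gate level. No order of the ELANE and MS4A1 gates is therefore read. In the CXCL8 gate 608, 687 and 1060 of 1154, 917 and 1100 cells were deep enough to thin. Before thinning, SERPINA1 was seen in 90.6%, 97.5% and 97.5% of them.

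**Figure D4:**
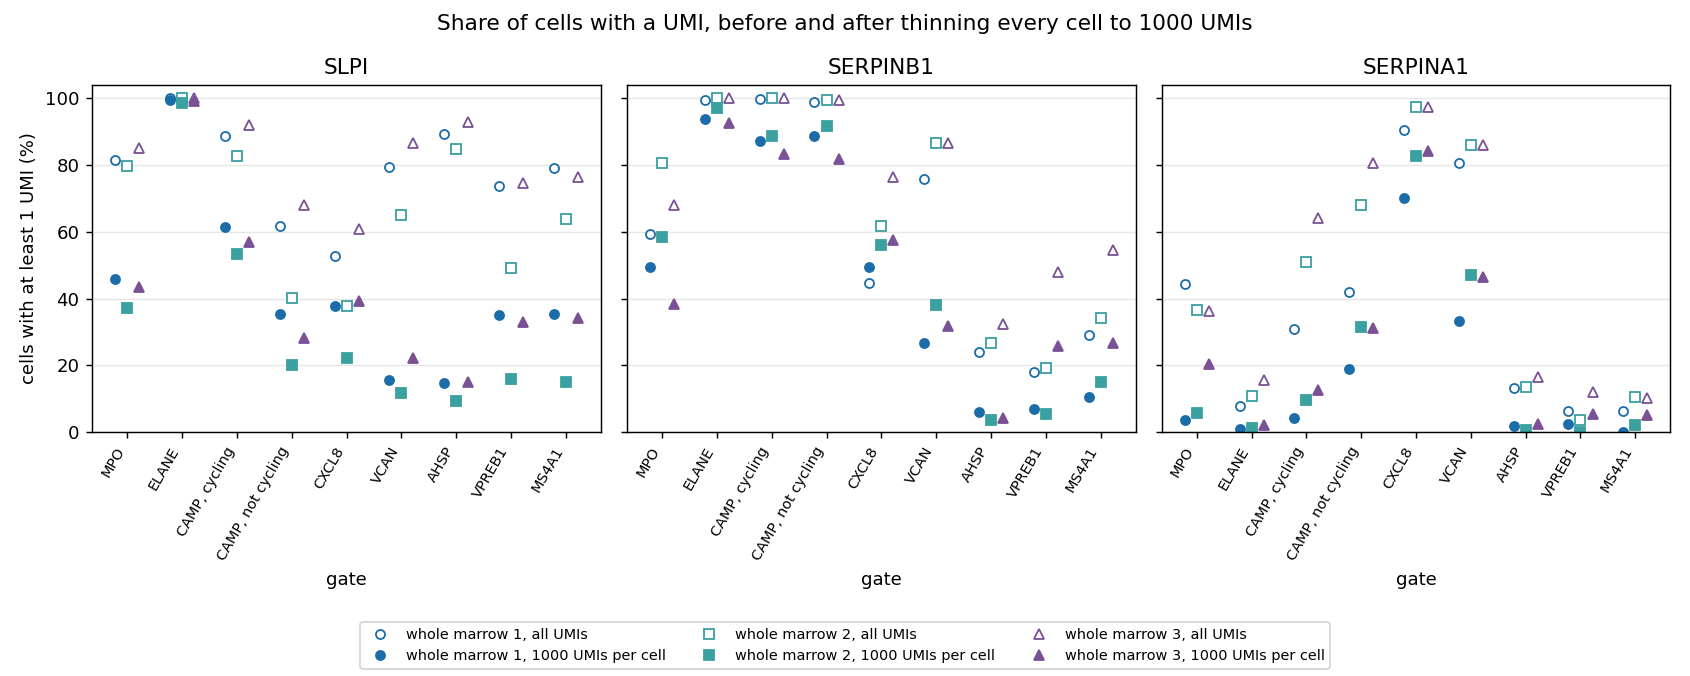
Percent of cells with at least 1 UMI of each inhibitor, by gate and whole marrow, with all UMIs (open) and with every cell thinned to 1000 UMIs (filled). For SLPI only the ELANE gate stays near 100% after thinning and the MS4A1 gate, a background, lies between 14.9% and 35.4%.

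Cells just inside and just outside the gate limits had these values. SLPI in cells just under the ELANE limit (0.8% to 1%; 15, 10 and 4 cells) stood at 64473, 15066 and 18154 CPM, and just above it (1% to 1.2%; 14, 5 and 4 cells) at 56645, 29059 and 29281.5. SERPINA1 in cells with 1 CXCL8 UMI stood at 269, 313 and 196 CPM and in cells with 2 at 853, 999 and 504 CPM.

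In CD34+ sorted cells the 3 inhibitors differed in how far they were present. The MPO gate of sorted libraries 1 and 2 held 442 and 351 cells with medians of 26822.5 and 30507 UMIs. SERPINB1 was seen in 95.7% and 91.2% of them (exact 95% intervals 93.4% to 97.4% and 87.7% to 93.9%, counting error only), SLPI in 40.0% and 29.9%, and SERPINA1 in 1.13% and 0.57%. In the MS4A1 gate of these libraries (13 and 6 cells, medians of 12445 and 9369.5 UMIs) SLPI was at 0 UMIs, which in the 13 cells of sorted library 1 allows a share of up to 23.1% (3 counts of the total). SERPINB1 there was seen in 2 of 13 and 0 of 6 cells.

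Within the sorted libraries SERPINB1 and SLPI were higher in cells with more MPO. At 0 MPO SERPINB1 stood at 41.7 and 51.9 CPM, at 0.1% to 0.2% MPO at 166 and 188, at 0.2% to 0.5% at 413 and 321, and at 0.5% to 1% at 756 and 889. SLPI in the same bins stood at 1.79 and 1.12, 14.4 and 7.80, 58.9 and 433, and 1032 and 965 CPM, but in sorted library 2 it was also 163 CPM at 0.05% to 0.1% MPO. SERPINA1 was 3.15 CPM or less in each bin. At 0.1% to 0.2% MPO both SERPINB1 and SLPI were thus above their levels in MPO-free cells of the same library, SLPI at 14.4 and 7.80 CPM.

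The sort was then compared within the MPO gate. The genes, gates and tests were chosen with earlier results of these data known, which limits what the p-values below can carry. SLPI stood at 3657, 3081 and 7424 CPM in whole marrows 1 to 3 and 473 and 139 in sorted libraries 1 and 2. SERPINB1 stood at 712, 1037 and 601 against 476 and 401 CPM, and SERPINA1 at 81.0, 53.1 and 146 against 0.412 and 0.184 CPM (200, 118 and 117 against 5 and 2 UMIs). Every sorted library lay below every whole marrow for each of these genes. The share of all genes that did so was not counted, so nothing is read from this. Of 7475 genes, 9 were called higher in sorted libraries (0.120%) and 123 lower (1.65%) at an adjusted p of 0.05 or less (edgeR). SERPINA1 was called lower, with a log2 fold change of -8.23 ± 0.78 (SE, edgeR adjusted p = 0.0141). SLPI, at -3.97 ± 0.80 (edgeR adjusted p = 0.106), and SERPINB1, at -0.82 ± 0.21 (edgeR adjusted p = 0.127), did not pass 0.05.

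These calls depended on the fit. A block by dog paired sorted libraries 1 and 2 with whole marrows 2 and 3. This pairing was assumed from the library numbers, since the labels do not give it. With this block 465 genes were called, SERPINB1 passed (-0.86, edgeR adjusted p = 0.00626) and SLPI did not (edgeR adjusted p = 0.486). DESeq2 called 294 genes and both SLPI (adjusted p = 0.000134) and SERPINB1 (adjusted p = 0.0351). Without the low-count filter edgeR called SERPINB1 (adjusted p = 0.0235). With a mitochondrial limit of 5% the MPO gate of sorted library 2 held 18 cells, too few to be used. The sorted arm of that fit was therefore sorted library 1 alone, with 78 cells. Its log2 fold change was -5.40 for SLPI and -1.73 for SERPINB1, given as sizes only. SERPINA1 was not called without sorted library 1 (edgeR adjusted p = 0.151) or without sorted library 2 (edgeR adjusted p = 0.152), fits that left that arm 1 library and called 15 and 14 genes. In these 2 fits its log2 fold change was -8.94 and -7.80, and that of SLPI -5.08 and -3.34. Without whole marrow 2 there were 76 calls. With at least 5 MPO UMIs SERPINA1 stood at -5.77 ± 0.65 (edgeR adjusted p = 0.0108). Cells of 1 gate only gave 59 calls, -6.41 for SERPINA1 (edgeR adjusted p = 0.0069) and -2.29 for SLPI (edgeR adjusted p = 0.201). The gates did not hold like cells: CAMP in them was 2473, 2927 and 9018 CPM in whole marrow and 2.72 and 10.2 CPM in sorted libraries, ELANE 645, 971 and 1685 against 174 and 511, and CD34 63.4 to 84.6 against 228 and 170. The part of these differences in the results was not tested.

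**Figure D5:**
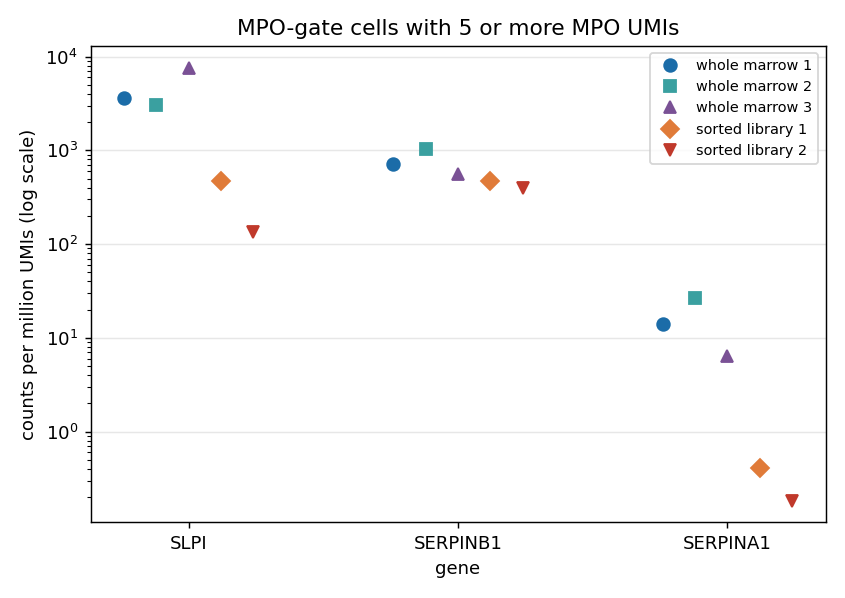
CPM on a log axis for each inhibitor in MPO-gate cells with at least 5 MPO UMIs, 1 point per library. The sorted libraries lie below each whole marrow, by least for SERPINB1.

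At a like share of ELANE, the sorted libraries lay below each whole marrow for summed SLPI. Summed SERPINB1 overlapped at the higher share of ELANE and not at the lower. Cells with ELANE at 1% to 4% of UMIs numbered 168, 68 and 56 in whole marrows 1 to 3 and only 3 and 18 in sorted libraries 1 and 2, so the sorted values are a description of few cells. SLPI in them stood at 89346, 50070 and 52535 CPM in whole marrow and 9137 and 4684 in sorted libraries, or 3.41, 1.99 and 2.06 against 0.502 and 0.257 SLPI UMIs per ELANE UMI. SERPINB1 stood at 2757, 3095 and 2218 against 3410 and 1815 CPM, ranges that overlapped. Cells with ELANE at 0.2% to 1% numbered 82, 39 and 105 in whole marrow and 14 and 32 in sorted libraries. In them summed SERPINB1 stood at 2459, 2183 and 1642 against 1403 and 926 CPM. Summed SLPI stood at 51632, 18026 and 25207 against 3809 and 931 CPM, so both sums were lower in each sorted library. The median cell held 54682.5, 23508 and 3454 CPM of SLPI against 3925 and 272, so whole marrow 3 lay below sorted library 1. Median depths of these cells were 8380.5, 8800 and 2318 against 28461 and 31895 UMIs. Mean ELANE in the cells at 1% to 4% was 25181 to 26216 CPM in whole marrow and 18200 and 18198 CPM in sorted libraries. CAMP in them stood at 17041, 24519.5 and 24087 against 110 and 21.1 CPM. In sorted library 2, 1 further cell with ELANE above 4% and 12395 UMIs had 152562 CPM of SLPI, a level within the range of whole-marrow ELANE-gate cells, and held 30.2% of that library's SLPI UMIs.

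In the VPREB1 gate SLPI stood at 284, 119 and 1356 CPM in whole marrow and 22.1 and 4.42 in sorted libraries, SERPINB1 at 101, 101 and 291 against 21.2 and 33.3, and SERPINA1 at 24.8, 27.5 and 63.2 against 0.276 and 0.136. In whole marrow 3, 1 cell held 1539 of the gate's 2597 SLPI UMIs. Of 7553 genes 0 were called higher (0.00%) and 49 lower (0.649%) by edgeR, with 630 at an unadjusted p under 0.05 in either direction and 11 called higher by DESeq2. SERPINA1 was called lower (-7.55 ± 0.71, edgeR adjusted p = 0.00659). SLPI (-5.41 ± 1.46, edgeR adjusted p = 0.338) and SERPINB1 (-2.57 ± 0.57, edgeR adjusted p = 0.178) were not. With the same assumed block by dog 385 genes were called and SERPINB1 passed (edgeR adjusted p = 1.33e-05). DESeq2 called 149 genes, among them SLPI (adjusted p = 0.00745) and SERPINB1 (adjusted p = 0.000238). The SERPINA1 call was lost with doublets removed (10 calls, -7.63, edgeR adjusted p = 0.0577), at a fold no smaller than with them, and with cells of 1 gate only (11 calls, -5.68, edgeR adjusted p = 0.123), and in the latter fit SLPI passed (-7.03, edgeR adjusted p = 0.00243). Without whole marrow 3 the log2 fold change was -3.82 for SLPI, -1.76 for SERPINB1 and -6.84 for SERPINA1. It was -7.04 for SLPI and -8.16 for SERPINA1 without sorted library 1, and -4.66 for SLPI without sorted library 2. The count was 22 without sorted library 1, 21 without sorted library 2 and 79 without whole marrow 1. The MS4A1 gate, read above as background, held SLPI at 176, 122 and 254 CPM in whole marrows 1 to 3. Without its 1 ELANE-gate cell the VPREB1 gate of whole marrow 3 held 561 CPM. The part of free RNA in the levels of the VPREB1 gate was not tested.

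Over all cells SLPI stood at 22358, 9506 and 13130 CPM in whole marrow and 112 and 103 in sorted libraries. SERPINB1 stood at 1070, 931 and 941 against 149 and 139 CPM, and SERPINA1 at 182, 265 and 322 against 1.08 and 2.08 CPM. Of 12507 genes edgeR called 1992 higher (15.9%) and 2169 lower (17.3%), and 3406 higher and 1617 lower without TMM scaling, which moved the median log2 ratio of all genes from 0.05 to 0.33. All 3 genes were lower, by log2 ratios of -7.43 ± 0.58 for SLPI (edgeR adjusted p = 0.00102), -3.06 ± 0.18 for SERPINB1 (edgeR adjusted p = 0.000522) and -7.63 ± 0.50 for SERPINA1 (edgeR adjusted p = 0.000726), and they were called in each alternative fit of this comparison. The count was 1757 without sorted library 1 and 2060 without sorted library 2. In such sums, fewer cells of a type and less RNA per cell cannot be told apart. Of the SLPI UMIs of sorted libraries 1 and 2, 78.2% and 23.5% came from the 425 and 339 cells of the MPO gate alone, 14.5% and 69.1% from the 3 and 19 ELANE-gate cells, and 1.21% and 1.28% from the cells of no gate.

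The genes most like each inhibitor were ranked by Pearson's r of log2 CPM over 27 sums (9 gates in 3 whole marrows) among 3960 genes. For SLPI they were ELANE (0.98), CHI3L1 (0.96), ENSCAFG00000042945 (0.95), ALOX15 (0.93) and GZMB (0.92), all highest in the ELANE gate. SERPINB1 ranked 11 on that list (0.88) and SERPINA1 stood at 0.09. For SERPINB1 they were ENSCAFG00000042945 (0.94), CEBPE (0.94), S100P (0.93), CPNE3 (0.93) and ENSCAFG00000005768 (0.93), with highest levels in the ELANE or the CAMP gates. CEBPE encodes a transcription factor of late granulocyte maturation. For SERPINA1 they were APOBR (0.95), ACTB (0.94), FCGR1A (0.94), IGSF6 (0.94) and FGL2 (0.94), all highest in the CXCL8 gate. The sums share libraries, and cells that passed several gates enter several sums. ELANE was itself used to cut the gates, so its place on the list of SLPI is partly set by them. These values are descriptions. With Spearman's rho 3, 1 and 3 of the 5 names were shared for SLPI, SERPINB1 and SERPINA1.

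The other inhibitors and the proteases were mostly at lower levels and peaked elsewhere. Of 33 further inhibitors in the tables, 8 reached a mean of 50 CPM in some gate of whole marrow. These were CSTB (1033 CPM) and CSTA (282 CPM), which encode inhibitors of cysteine cathepsins, and SERPINB8 (103 CPM), all highest in the non-cycling CAMP gate, TIMP2 (289 CPM), an inhibitor of metalloproteinases, and SERPINE2 (73.8 CPM) in the CXCL8 gate, TIMP1 (286 CPM) and SERPINB10 (140 CPM) in the VCAN gate, and SPINT2 (57.7 CPM) in the MPO gate. None of these 8 had its highest mean in the ELANE gate. Of 19 proteases 10 reached 50 CPM, and ELANE (54580 CPM), GZMB (5085 CPM) and PRSS57 (1036 CPM) were highest in the ELANE gate. For ELANE, which defines that gate, this was set by the gate. MMP9 (1701 CPM) and MMP8 (1336 CPM), metalloproteinases of later granules, were highest in the non-cycling CAMP gate, and the cathepsin gene CTSS (820 CPM) in the VCAN gate.

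From the MPO to the ELANE gate 0 of 8 further inhibitors were at least 2-fold higher in all 3 whole marrows and 3 were lower, with a median log2 ratio of -0.27 against -0.83 for all genes. Over all genes 0.885% were higher and 25.3% lower, so 3 of 8 is near the background. Among 9 proteases 2 were higher (ELANE and GZMB) and 2 lower (CTSS and CTSZ), with a median of 0.15. ELANE was itself used to cut these gates. Its higher level here was therefore fixed by them, and its lower level at the next step partly so. From the ELANE to the cycling CAMP gate 1 of 8 inhibitors was higher (SERPINB8) and 0 lower, while 4 of 10 proteases were higher (CTSH, MMP8, MMP9 and PLAU) and 2 lower (ELANE and GZMB). The shares over all genes were 8.11% and 5.36%, and 1 of 8 is near the first of these. From the cycling to the non-cycling CAMP gate 1 of 7 inhibitors was higher (SERPINB10) and 0 lower, and 4 of 11 proteases were higher (CTSB, CTSH, MMP8 and MMP9) and 1 lower (CTSC), against 8.56% and 8.76% of all genes. From the non-cycling CAMP to the CXCL8 gate SERPINE2, TIMP1 and TIMP2 were higher and CSTA lower, with a median of 0.96 for 8 inhibitors against 0.77 for all genes. Of 12 proteases 4 were higher (CTSB, CTSC, CTSS and CTSZ) and 1 lower (MMP8). Over all genes 26.6% were higher and 1.83% lower at this step, so the counts of higher genes in both lists are near the background.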

How the data were processed

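Droplet libraries (10x Genomics 3' kit, read pairs of 150 bp, 5000 cells targeted) of 5 samples were analysed: whole_marrow 1 to 3 and CD34_sorted 1 and 2. The deposited matrices are unnormalized counts: each entry is the whole number of UMIs of 1 gene in 1 barcode. Per the file headers they were made by Cell Ranger 7.0.1. The submitters' processing notes name version 7.1.0 of that tool and the build CanFam 3.1. An annotation release was not given in the sources used here. For lack of a matching genome, coordinates and sequences are left out. Gene symbols are those of the deposited tables. Free RNA was not removed.

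Genes, gates, gene lists, tests and most alternatives were chosen with earlier results of these data known, and the genes were picked for their differing levels over such cells. Barcodes were filtered as described above; 13 mitochondrial genes counted. Gates with under 20 cells in a library were not averaged. Doublets (0.8% expected per 1000 barcodes; 426, 168, 151, 178 and 113 called) were kept in the main values. Steps between gates used log2 of CPM plus 1 for genes with a mean of 10 CPM or more, and a gene was counted where all 3 libraries differed 2-fold or more. Sums of raw counts per library were compared with edgeR 4.0.16 (TMM, filter by expression, quasi-likelihood test, Benjamini-Hochberg adjustment at 0.05); the SE is the log2 fold change over the root of its F value. DESeq2 1.42.0 was an alternative. The scripts were tested on simulated data. Intervals are exact binomial, and the limit for a count of 0 is 3 counts of the total.

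Sorted cells came from marrows 2 and 3 per the labels' protocols. They do not say which sorted library came from which of these dogs. The block by dog pairs them by the order of the numbers in the library names, which is an assumption. The difference of marrows 2 and 3 correlated with that of sorted libraries 1 and 2 (r = 0.37 across 6339 genes, which are not independent replicates). Libraries of a group are separate dogs. Genes named are the 3 chosen ones, the markers of the gates, the 5 genes most like each, and listed proteases and inhibitors that reach 50 CPM.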

Additional observations from a re-analysis of the deposited data

How the results depend on the processing

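Between the ELANE and CXCL8 gates no alternative changed a direction. For SLPI the log2 ratio of -4.15 became -7.75 with cells of 1 gate only, -6.02 as a mean over cells, -4.42 without gate genes, HBM and the 3 genes in the denominator and -5.87 with gate limits doubled, and -4.22 to -4.10 with 1 whole marrow left out. For SERPINB1 (-1.85) leaving out 1 library gave -1.97 to -1.63. For SERPINA1 the ratio of 7.04 became 6.86 with a mitochondrial limit of 5%, 7.76 with doublets removed, 8.88 with cells of 1 gate only, 7.66 as a mean over cells, 6.79 with the changed denominator and 7.63 with limits doubled, and 7.01 to 7.08 with 1 library left out. The shifts other than those of leaving out 1 library exceed the SD between libraries.

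In the comparison of the sort within the MPO gate, 132 genes were called, 294 with DESeq2, 314 without the low-count filter, 465 with the replicate block by dog, 59 with cells of 1 gate only and 14 to 165 with 1 library left out. In the VPREB1 gate the 49 calls became 149 with DESeq2, 133 without the filter, 385 with the dog as a block, 10 with doublets removed, 11 with cells of 1 gate only and 21 to 79 with 1 library left out. Over all cells the 4161 calls became 1757 to 4670 with 1 library left out. The cause was not tested. Over the alternative fits of the 3 genes, 46 kept a call, 4 lost one, 10 gained one and 38 had none in either fit, and no direction reversed. With a mitochondrial limit of 5% the fold of SERPINA1 in the MPO gate could not be given. Sorted library 1, the only sorted library in that fit, held no UMI of it. Of the levels by gate, 394 alternatives moved by less than 1 SD and 119 by more. Sorted ELANE-gate cells (3 and 19) and the MS4A1 gates are too few for a comparison of levels.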
